A study of Rattus norvegicus with 16 samples.

Results

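Type I interferon-stimulated genes were followed in rat dorsal root ganglia (DRGs), the ganglia that hold the cell bodies of sensory neurons, during the growth of a bone tumor. The set was a fixed list of 46 gene symbols, taken by symbol. It was chosen with earlier results of these data known, so its shares beside those of all genes are a description. Of these, 45 were found among the 21021 genes of the tables and 44 were tested among 14023 genes with at least 1 FPKM (fragments scaled to transcript length and to all mapped fragments of the sample) in at least 3 samples. Oas3 was found but fell below that level, and the symbol Xaf1 was not found. A row spelled XAF1 carries the Entrez number 679600, which RefSeq gives to Xaf1, and is described below without being counted.

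The rats were adult female Sprague-Dawley animals, and RNA from the left L3–L5 ganglia of 1 animal made 1 sample. Tumor cell implantation (TCI) placed rat mammary carcinoma cells in the left tibia, and DRGs were taken on day 1, 7 or 14, with 4 samples on each day. The 4 sham samples were collected on day 14 only, so that tumor and time since surgery cannot be told apart on days 1 and 7. The labels give a sham injection of PBS, and the methods of the study give boiled tumor cells. The study left out sample 2 of TCI D1 and sample 3 of TCI D7 for low correlation with other samples, and all tests below used the other 14 samples (sham n = 4, TCI D1 n = 3, TCI D7 n = 3, TCI D14 n = 4). Values of the samples that were left out are given beside them. A whole ganglion is a mixture of neurons with glial, vascular and immune cells, and in such bulk tissue more cells of a type and more RNA per cell cannot be told apart.

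Type I interferons are secreted cytokines that bind the receptor IFNAR on almost any cell. The receptor's kinases JAK1 and TYK2 phosphorylate STAT2, which joins IRF9 in the complex ISGF3, and this complex binds interferon-stimulated response elements (ISREs) near the start of many genes. The products of these genes sense foreign nucleic acid, block virus entry, translation and release, and tune the signal itself. Interferon-gamma acts through another receptor and through gamma-activated sites (GAS), and the gene sets of both interferons overlap.

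The promoters are shown first because the ISRE is the element that ISGF3 binds. RefSeq windows of 300 bases, from 250 before to 50 after the start of a gene (assembly GRCr8), were at hand for 32 of the 45 members, as 33 windows. An ISRE core, GAAANNGAA on either strand, was present in 22 of the 33 windows (66.7%), against 9.71% of all 33469 windows and 7.14% of the 12360 windows of tested genes. The GAS letters TTCNNNGAA, which read the same way on both strands, were present in 7 windows (21.2%), against 8.87% of all windows. Matches of the 2 motifs were counted apart, and 2 ISRE cores may share bases. In 19 of the 22 windows an ISRE core began within 100 bases of the start. The stretches below belong to members whose values are described further on, each with 61 bases on the strand of the gene and the ISRE core in capitals.
Bst2, chr16:18255061-18255121, minus strand: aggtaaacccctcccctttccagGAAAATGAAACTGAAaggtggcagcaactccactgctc
Ifitm3, chr1:205541768-205541828, minus strand: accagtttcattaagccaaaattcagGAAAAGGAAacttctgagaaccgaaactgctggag
Ifitm2, chr1:205482347-205482407, minus strand: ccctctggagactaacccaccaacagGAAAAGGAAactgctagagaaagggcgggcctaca
Isg20, chr1:142239941-142240001, plus strand: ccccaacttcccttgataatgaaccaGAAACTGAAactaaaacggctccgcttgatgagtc
Ifit3, chr1:241527267-241527327, plus strand: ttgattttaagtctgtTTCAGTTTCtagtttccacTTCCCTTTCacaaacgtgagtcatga
Oas1b, chr12:41395874-41395934, minus strand: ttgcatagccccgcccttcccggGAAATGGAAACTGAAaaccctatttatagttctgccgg
Irf7, chr1:205800057-205800117, minus strand: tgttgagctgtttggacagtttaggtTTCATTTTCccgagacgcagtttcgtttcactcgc

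The core began 131 and 125 bases before the start in Bst2, where both copies overlap, 59 and 53 bases before it in Oas1b, and 92 bases before it in Isg20. The Ifitm2 and Ifitm3 stretches share the core GAAAAGGAA, 33 and 44 bases before the start. In Ifit3 and Irf7 the core lay on the other strand, so that its reverse complement is in capitals. The windows of Stat2, Irf9 and Ifi35 held no ISRE core, which says only that these letters are not in these 300 bases. A match is a description of the sequence and was not tested as a binding site.

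The level of the set as a whole differed between the groups. The median of the 44 tested members was 2.60 to 3.24 FPKM in the 4 sham samples and 3.76 to 5.19 FPKM in the 4 TCI D1 samples. On TCI D7 it was 8.71, 12.4 and 9.01 FPKM, with 17.4 FPKM in the sample left out, and on TCI D14 it was 7.32, 25.2, 7.42 and 6.08 FPKM. All sham samples thus lay below all TCI D1 samples, and all TCI D1 samples below all later ones. Sample 2 of TCI D14 stood apart. It was the highest of its group in 45 of 45 members and the highest of all 16 samples in 37, and its values were a median of 2.88 times the median of the other 3 samples. The median SD of a member on TCI D14 was 0.729 on the log2 scale with this sample and 0.177 without it. Sample 3 of TCI D7, one of the samples left out, was the highest of its group in 37 of 45 members.

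**Figure D1:**
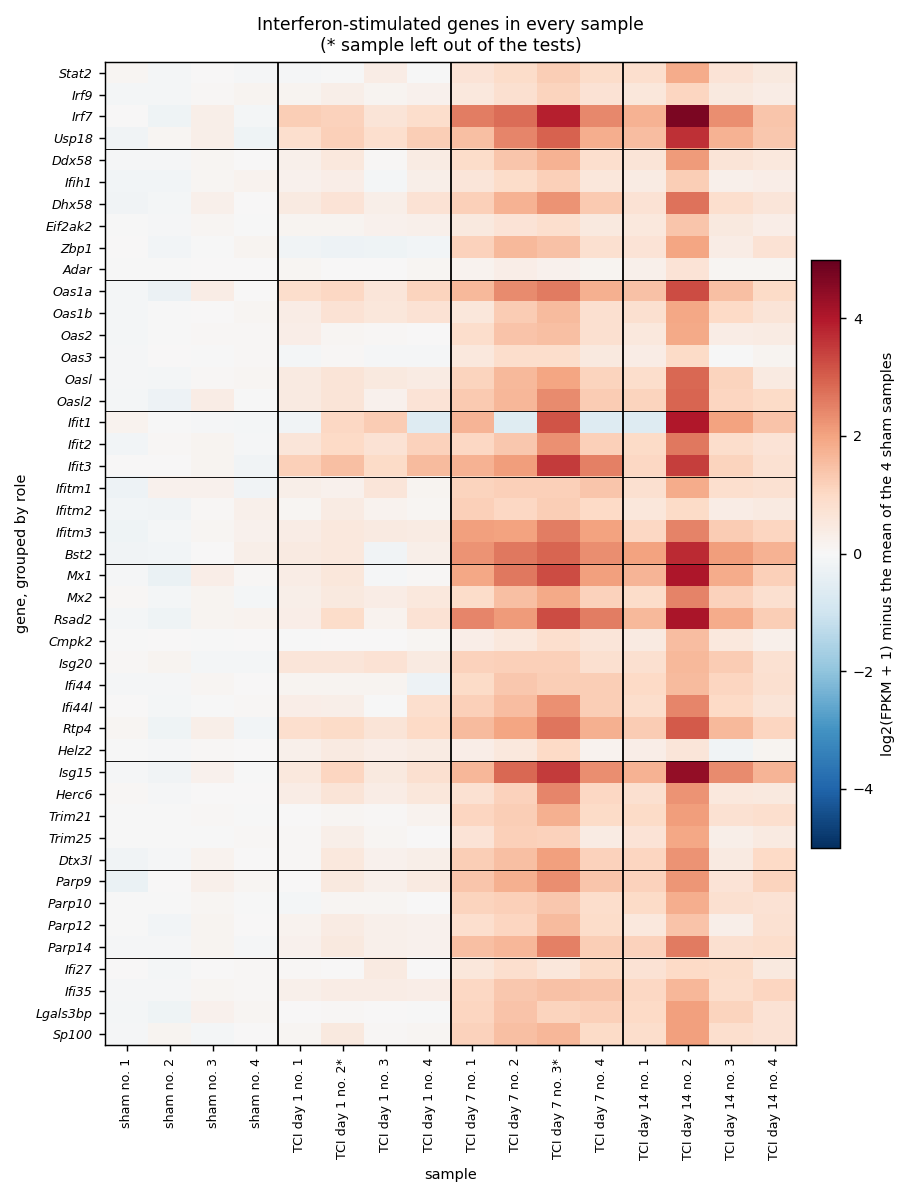
Each row is 1 of the 45 members, grouped by role, and each column 1 of the 16 samples. Color gives log2(FPKM + 1) minus the mean of the 4 sham samples, red for higher and blue for lower. The TCI D1 columns are pale red in part of the rows, the TCI D7 and D14 columns are red in nearly all, and sample 2 of TCI D14 is the darkest column of its group in 45 of 45 rows.

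Which members were already higher on day 1 was the first question. No member passed the study's cut-offs (log2 fold change of at least 1 and adjusted p of at most 0.001) on TCI D1, and neither did any of the 14023 genes (0% called). At an adjusted p of at most 0.05 the count was again 0 of 44 members, beside 0% of all genes (limma). The smallest adjusted p of a member was 0.793, and it lay between 0.119 and 1.0 over the alternatives tried. At an unadjusted p under 0.05, 7 of 44 members were higher (15.9%), against 2.91% of all genes. The fold change on the log2(FPKM + 1) scale was above 0 in 42 of 44 members (95.5%), against 50.3% of all genes, and in 39 to 43 of 44 under the alternatives that kept all 44. The median was 0.23 for the members and 0.00 for all genes tested.

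In 20 of 44 members (45.5%) every TCI D1 sample lay above every sham sample, against 6.17% of all genes, and in 0 members every TCI D1 sample lay below, against 5.73%. These 20 were Irf7, Usp18, Dhx58, Eif2ak2, Adar, Oas1a, Oas1b, Oasl, Ifit2, Ifit3, Ifitm3, Mx2, Isg20, Rtp4, Helz2, Isg15, Herc6, Parp12, Parp14 and Ifi35. With sample 2 of TCI D1 put back, the count over all 16 samples was again 20, against 5.01% of all genes. No member was therefore shown to differ on day 1 by the test across genes, while the order of the samples was one-sided among the 44 tested members.

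The 6 members with the smallest unadjusted p on day 1 follow in full. Isg20, an exonuclease that degrades single-stranded RNA, was 0.83, 0.91, 0.62 and 0.61 FPKM in the sham samples, 1.63, 1.86 and 1.36 FPKM on TCI D1 (1.61 in the sample left out), 2.85, 2.95 and 2.01 FPKM on TCI D7 (2.99), and 2.04, 4.39, 3.19 and 1.96 FPKM on TCI D14. The sham and TCI D1 samples did not overlap, and the log2 fold change was 0.59 (SE 0.18, limma adjusted p = 0.793). Ifit3, which binds foreign RNA together with its family members, was 0.49, 0.48, 0.59 and 0.28 FPKM in sham and 2.34, 1.84 and 3.35 FPKM on TCI D1 (3.18 in the sample left out). It had the largest day 1 fold change of the tested members, 5.46 times the sham mean and a log2 fold change of 1.25 (SE 0.49, adjusted p = 0.939). On TCI D7 it was 3.81, 5.20 and 7.24 FPKM (15.6 in the sample left out), and on TCI D14 2.02, 14.9, 2.19 and 1.45 FPKM. On day 14, 3 of the 4 samples thus lay within or below the range of day 1.

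Rtp4, a chaperone that helps receptors reach the cell surface, was 2.51, 1.79, 2.98 and 1.96 FPKM in sham, 4.83, 4.07 and 5.53 FPKM on TCI D1 (5.36 in the sample left out), 8.80, 11.7 and 10.2 FPKM on TCI D7 (19.7), and 6.97, 26.2, 9.14 and 5.84 FPKM on TCI D14. Its 4 groups were in the order sham, day 1 and the later days, with no overlap between these 3 steps. Usp18, the protease that removes Isg15 from proteins and dampens signaling at the receptor, was 1.35, 1.80, 2.19 and 1.28 FPKM in sham, 3.70, 3.69 and 5.20 FPKM on TCI D1 (5.05), 6.38, 13.3 and 8.35 FPKM on TCI D7 (19.4), and 6.62, 31.9, 7.89 and 5.73 FPKM on TCI D14. The order of the steps was the same as for Rtp4. Their log2 fold changes on day 1 were 0.82 (SE 0.35) for Rtp4 and 0.97 (SE 0.43) for Usp18, both with an adjusted p of 0.939.

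Ifit2, of the same family as Ifit3, was 2.03, 2.42, 2.63 and 2.13 FPKM in sham, 3.96, 4.37 and 6.30 FPKM on TCI D1 (5.51), 5.75, 7.47 and 6.54 FPKM on TCI D7 (15.02), and 5.35, 19.2, 5.03 and 4.32 FPKM on TCI D14. Oas1b, of the family that makes the short adenylate chains which switch on RNase L, was 4.56, 4.93, 5.09 and 5.40 FPKM in sham, 6.82, 7.78 and 8.90 FPKM on TCI D1 (8.97), 7.75, 13.3 and 9.34 FPKM on TCI D7 (16.7), and 9.32, 21.6, 11.1 and 8.24 FPKM on TCI D14. For both genes day 1 lay above sham and reached into the range of the later days. Helz2, a helicase that acts as a coactivator, was the remaining member with an unadjusted p under 0.05, at 1.09 ± 0.0789 FPKM in sham (SD, n = 4) and 1.64 ± 0.157 FPKM on TCI D1 (n = 3).

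Summed macrophage and T cell markers were within the range of sham on day 1. Neutrophil markers reached above it, and plasmacytoid dendritic cell markers lay below it. Summed over 15 macrophage markers, TCI D1 held 103 to 126 FPKM and sham 78.3 to 144 FPKM, and summed over 15 T cell markers TCI D1 held 6.86 to 9.21 FPKM and sham 6.34 to 9.69 FPKM. The sum over 6 neutrophil markers was 0.94 to 1.34 FPKM on TCI D1 and 0.65 to 0.99 FPKM in sham. For 9 markers of cytotoxic lymphocytes it was 0.78 to 1.06 FPKM and 0.73 to 1.61 FPKM. For 4 markers of plasmacytoid dendritic cells it was 49.5 to 55.3 FPKM on TCI D1 and 56.9 to 63.1 FPKM in sham. Only 1 of these 4 was tested, and it was not called. For 5 endothelial markers it was 20.0 to 25.5 FPKM on TCI D1 and 21.4 to 24.7 FPKM in sham. The part of any cell type in the day 1 levels of the members was not tested.

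**Figure D2:**
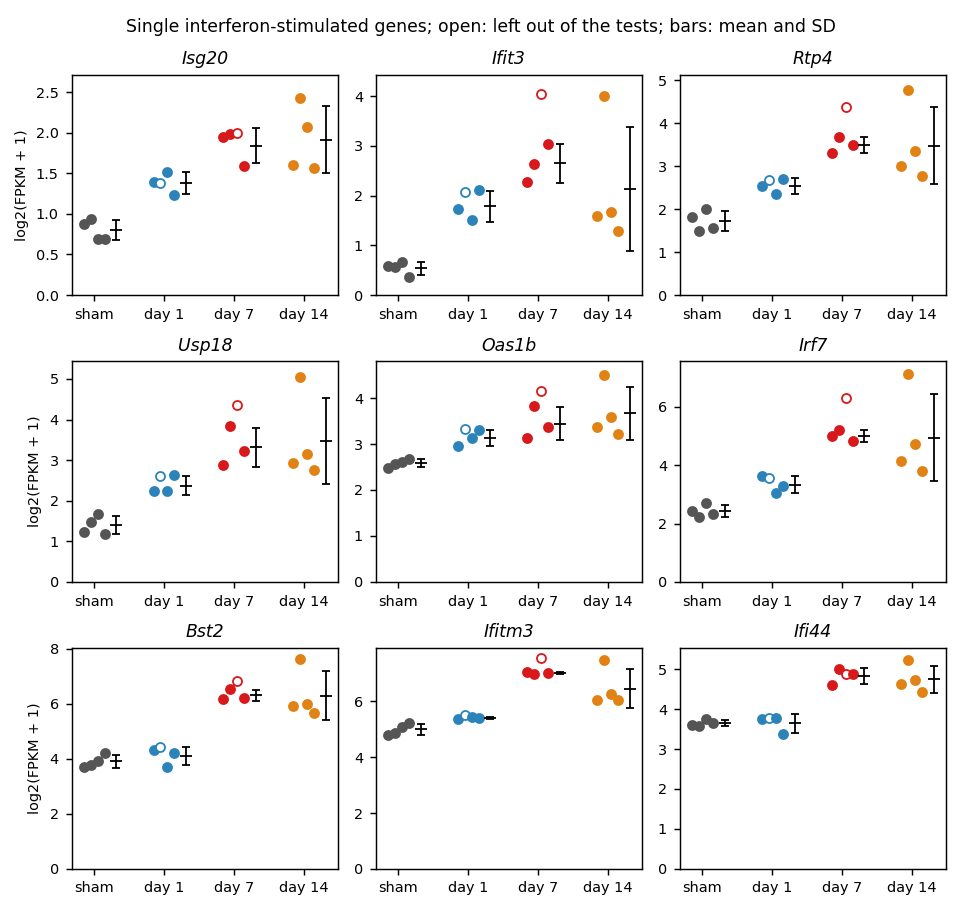
Level of 9 members in every sample as log2(FPKM + 1), with the mean and SD of the samples used in the tests beside the points and open circles for the samples left out. In the upper 6 genes all TCI D1 points lie above the sham points, whereas for Bst2 and Ifi44 they overlap the sham points, and sample 2 of TCI D14 is the highest of its group in all 9 panels.

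On day 7 and day 14 nearly the whole set was higher than in sham. At an adjusted p of at most 0.05, 38 of 44 members were higher on TCI D7 (86.4%), against 14.5% of all genes, and 38 of 44 on TCI D14, against 11.9%. No member was lower. The study's stricter cut-offs were passed by 5 members on TCI D7 (11.4%), against 1.83% of all genes, and by 3 on TCI D14 (6.82%), against 0.642%. The TCI D7 samples lay above all sham samples in 43 of 44 members, against 23.8% of all genes, with Ifit1 as the exception. On TCI D14 this held for 42 of 44, against 13.8%, with Ifit1 and Helz2 as the exceptions. The members had a median log2 fold change of 1.19 (day 7) and 1.16 (day 14), beside 0.04 and 0.03 for all genes tested.

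How many members passed the strict cut-offs rested on single samples. Without sample 2 of TCI D14 they were passed by 31 members on day 7 and 9 on day 14, against 3.38% and 1.24% of all genes in the same fit, and the median on day 14 was 0.83. The members added on day 7 included Irf7, Isg15, Rsad2 and Mx1. Without sample 1, 2 or 4 of TCI D7 the day 7 count was 1, 0 or 2, against 0.351%, 0.373% and 1.5% of all genes. Without sham sample 1, 2 or 3 it was 2, against 0.486%, 0.493% and 0.757%, and without sham sample 4 it was 3, against 0.907%. The day 14 count was 0 without any 1 of the 4 sham samples, against 0.107% to 0.207% of all genes. It was 1 without any 1 of the TCI D1 or TCI D7 samples or without sample 1 or 3 of TCI D14, against 0.243% to 0.879%. With all 16 samples, 11 members passed on day 7 and 4 on day 14, against 2.38% and 0.66% of all genes. At an adjusted p of at most 0.05 the day 7 count stayed at 28 or more except without sample 2 of TCI D7 (25), and the day 14 count at 29 or more, when 1 sample was left out. The shares of all genes in these fits were 10.1% to 17.1% on day 7 and 8.11% to 14.4% on day 14.

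Bst2, Ifitm3, Ifi35, Ifi44 and Ifitm2 passed the study's cut-offs on day 7, and Bst2, Ifi35 and Ifi44 also on day 14. Bst2, or tetherin, holds budding virus at the cell surface. It was 12.1, 12.6, 14.2 and 17.5 FPKM in sham, 19.2, 12.1 and 17.5 FPKM on TCI D1 (20.3 in the sample left out), 70.8, 90.8 and 73.1 FPKM on TCI D7 (111.5), and 59.3, 195.6, 62.2 and 49.4 FPKM on TCI D14. Day 1 overlapped sham, and both later days lay above them without overlap. On the log2 scale Bst2 was higher by 2.40 on day 7 (SE 0.36, adjusted p = 0.000706) and 2.39 on day 14 (SE 0.33, adjusted p = 0.000821). Both calls were close to the cut-off of 0.001, since Bst2 passed in 3 of 14 fits without 1 sample on day 7 and in 2 of 14 on day 14, with an adjusted p of at most 0.00496.

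Ifitm3, a membrane protein that keeps enveloped virus from fusing, was 26.6, 28.5, 33.2 and 36.2 FPKM in sham, 40.1, 42.9 and 41.6 FPKM on TCI D1 (45.2), 130.6, 126.1 and 128.7 FPKM on TCI D7 (189.0), and 64.9, 177.5, 75.8 and 65.8 FPKM on TCI D14. The 3 TCI D7 samples used lay close together, and 3 of 4 TCI D14 samples lay below all of them. Its log2 fold change was 2.02 on day 7 (SE 0.26, adjusted p = 0.000296) and 1.47 on day 14 (SE 0.24, adjusted p = 0.0023). The day 7 call was made in 8 of 14 fits without 1 sample and was lost without any 1 of the TCI D7 samples or without sham sample 1, 2 or 3. Ifitm2, its close relative, was 28.5, 27.3, 32.8 and 37.0 FPKM in sham, 33.3, 35.2 and 33.5 FPKM on TCI D1 (42.1), 72.4, 64.2 and 62.8 FPKM on TCI D7 (74.0), and 46.1, 60.7, 40.3 and 43.5 FPKM on TCI D14. Its log2 fold change was 1.06 on day 7 (SE 0.13, adjusted p = 0.000177) and 0.58 on day 14 (adjusted p = 0.00614), and the day 7 call was made in 12 of 14 such fits, all but those without sample 1 or 2 of TCI D7. Ifitm1 passed an adjusted p of 0.05 on both days, with 16.3 ± 2.96 FPKM in sham, 38.9 ± 3.87 FPKM on TCI D7 and 36.7 ± 16.0 FPKM on TCI D14. Near-identical Ifitm copies can share reads, so the split of reads between them is uncertain.

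Ifi35, which forms a complex with the interferon-induced protein Nmi, was 6.10, 6.21, 6.94 and 6.70 FPKM in sham, 7.82, 8.62 and 8.37 FPKM on TCI D1 (8.60), 14.5, 17.9 and 18.7 FPKM on TCI D7 (19.9), and 14.2, 22.7, 12.7 and 14.7 FPKM on TCI D14. It showed the same steps as Rtp4 and had the smallest adjusted p of the set on both days, at log2 fold changes of 1.26 (SE 0.15, adjusted p = 0.000162) and 1.16 (SE 0.14, adjusted p = 0.000383). Of 14 fits without 1 sample it passed in 13 on day 7 and in 9 on day 14. Ifi44, a cytoplasmic protein of uncertain function, was 11.05, 11, 12.4 and 11.6 FPKM in sham, 12.6, 12.8 and 9.36 FPKM on TCI D1 (12.8), 23.5, 31.0 and 28.3 FPKM on TCI D7 (28.3), and 23.6, 36.6, 25.4 and 20.7 FPKM on TCI D14. Its day 1 mean (11.6 FPKM) was close to that of sham (11.5 FPKM). Its log2 fold change was 1.18 on day 7 (SE 0.16, adjusted p = 0.000357) and 1.11 on day 14 (SE 0.15, adjusted p = 0.000709). It passed in 7 of 14 fits without 1 sample on day 7, losing the call without any 1 of the sham or TCI D7 samples, and in 1 of 14 on day 14, with an adjusted p of at most 0.00362.

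Among the genes of signal transduction, Irf7, the factor that switches on the interferon-alpha genes, was 4.34, 3.64, 5.49 and 4.05 FPKM in sham, 11.5, 7.32 and 8.77 FPKM on TCI D1 (10.8), 30.6, 35.6 and 27.2 FPKM on TCI D7 (78.3), and 16.8, 137.1, 25.4 and 13.0 FPKM on TCI D14. Its mean was 2.10 times that of sham on day 1 and 7.11 times on day 7. The log2 fold change of 2.58 on day 7 was the largest of the set (SE 0.56, adjusted p = 0.00688). Stat2 was 17.2, 14.8, 16.2 and 15.2 FPKM in sham, 15.2, 20.7 and 15.6 FPKM on TCI D1 (15.5), 25.7, 30.8 and 30.9 FPKM on TCI D7 (38.8), and 28.9, 60.0, 25.8 and 22.3 FPKM on TCI D14. Irf9, its partner in ISGF3, was 13.1, 13.2, 14.9 and 15.4 FPKM in sham, 15.8, 15.4 and 16.8 FPKM on TCI D1 (17.6), 20.5, 25.04 and 23.7 FPKM on TCI D7 (31.5), and 21.3, 30.7, 20.3 and 18.5 FPKM on TCI D14. Both subunits were higher at an adjusted p of at most 0.05 on both later days, Stat2 by 0.84 and 0.96 and Irf9 by 0.67 and 0.62 on the log2 scale, and neither was free of overlap with sham on day 1. Usp18, described above, had log2 fold changes of 1.92 and 2.07 (adjusted p = 0.00809 and 0.00493), so that 4 of the 4 genes of this role passed the looser limit on both days.

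The group of 6 sensors of foreign or altered nucleic acid also held the editing enzyme Adar. Of these 6, 4 were higher at an adjusted p of at most 0.05 on each of both days. Dhx58 (LGP2) had a log2 fold change of 1.42 on day 7 and 1.22 on day 14, Ddx58 (RIG-I) of 1.05 and 0.98, and Zbp1, a sensor of left-handed nucleic acid, of 1.19 and 0.94. Zbp1 had the lowest log2 fold change of the tested members on day 1, −0.18, with 1.18 ± 0.0643 FPKM against 1.47 ± 0.197 FPKM in sham, and the samples overlapped. Ifih1 (MDA5) passed on day 7 only, and Eif2ak2 (PKR), the kinase that halts translation, on day 14 only; whether these days differ is given by the comparison of day 14 with day 7 below. Adar, which edits adenosine in double-stranded RNA, passed on neither day, with 16.7 ± 0.263 FPKM in sham and 19.7 ± 1.49 FPKM on TCI D7 (adjusted p = 0.202).

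In the synthetase family, 5 of 5 tested members were higher on day 7 and 4 of 5 on day 14 at an adjusted p of at most 0.05. Oas1a had the largest log2 fold changes, 1.92 (SE 0.41, adjusted p = 0.00617) and 1.79 (SE 0.38, adjusted p = 0.00781), and its mean of 4.22 ± 0.930 FPKM on TCI D1 was 2.26 times that of sham. Oasl2 was 5.51 ± 1.22 FPKM in sham, 16.2 ± 2.85 FPKM on TCI D7 and 21.1 ± 17.4 FPKM on TCI D14. Oas2 stayed under 0.30 FPKM in every sham sample and lay between 1.14 and 2.29 FPKM in the 3 TCI D7 samples. Oas3, which was not tested, was 0.09 to 0.16 FPKM in sham, 0.56 to 1.09 FPKM on TCI D7 and 0.10 to 1.19 FPKM on TCI D14. On TCI D1 it was 0.04, 0.08 and 0.07 FPKM (0.18 in the sample left out). The TCI D1 samples used thus lay below all sham samples, at levels near 0. In the IFIT family, Ifit2 and Ifit3 were higher on both days (log2 fold change 1.20 and 2.11 on day 7), while Ifit1 ranged from 0.02 to 4.06 FPKM within the 3 TCI D7 samples used and from 0.0 to 24.7 FPKM within TCI D14. Members of both families have near-identical copies that can share reads, so the split of reads between them is uncertain. The cause of the spread of Ifit1 was not tested.

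The Mx proteins and other antiviral effectors comprised 9 members, of which 7 were higher on day 7 and 8 on day 14 at an adjusted p of at most 0.05. Mx1, a dynamin-like GTPase, and Rsad2 (viperin), which makes a chain-terminating nucleotide, had log2 fold changes of 2.20 and 2.37 on day 7 and of 2.19 and 2.20 on day 14, and are given in full here although chosen after their values were seen. Mx1 was 2.46, 1.85, 3.48 and 2.71 FPKM in sham, 3.58, 2.39 and 2.73 FPKM on TCI D1 (4.29), 12.7, 21.2 and 13.8 FPKM on TCI D7 (33.4), and 10.6, 57.7, 11.8 and 7.15 FPKM on TCI D14. Rsad2 was 1.01, 0.83, 1.33 and 1.44 FPKM in sham, 1.70, 1.44 and 2.54 FPKM on TCI D1 (3.04), 10.7, 8.28 and 11.5 FPKM on TCI D7 (19.7), and 5.58, 35.2, 6.72 and 4.08 FPKM on TCI D14. Both overlapped sham on day 1, unlike Mx2, which was 13.7 ± 1.18 FPKM in sham and 18.4 ± 1.41 FPKM on TCI D1. Cmpk2, a nucleotide kinase of mitochondria, passed on day 14 only, and Helz2 on neither day.

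Isg15, a ubiquitin-like protein that is attached to other proteins, was 4.58, 4.17, 5.70 and 4.72 FPKM in sham, 7.27, 7.02 and 9.09 FPKM on TCI D1 (11.1), 17.1, 40.7 and 28.2 FPKM on TCI D7 (63.3), and 18.4, 119.9, 28.4 and 17.7 FPKM on TCI D14, and was likewise chosen after its values were seen. The 3 steps did not overlap, and the log2 fold changes were 2.28 on day 7 (adjusted p = 0.00748) and 2.55 on day 14 (adjusted p = 0.00374). With the ubiquitin ligases Herc6, Trim21 and Dtx3l, 4 of the 5 genes of this role were higher on both days at an adjusted p of at most 0.05, and Trim25 on neither. The 4 members of the PARP family, which attach ADP-ribose, were all higher on both days by that limit, with log2 fold changes from 0.95 for Parp12 to 1.51 for Parp9 on day 7. The remaining members with a test were Ifi27, Ifi35, Lgals3bp and Sp100, and 4 of these 4 passed on both days. Ifi27, a small membrane protein, had the highest level of the set in sham, 219.8 ± 11.5 FPKM, against 386.0 ± 53.1 FPKM on TCI D7 and 381.0 ± 58.8 FPKM on TCI D14. The row spelled XAF1, a gene of cell death, was 2.64 ± 0.811 FPKM in sham, 3.60 ± 0.0961 FPKM on TCI D1, 8.34 ± 0.781 FPKM on TCI D7 and 9.68 ± 7.34 FPKM on TCI D14, with an adjusted p of 0.976, 0.011 and 0.00986 on the 3 days.

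**Figure D3:**
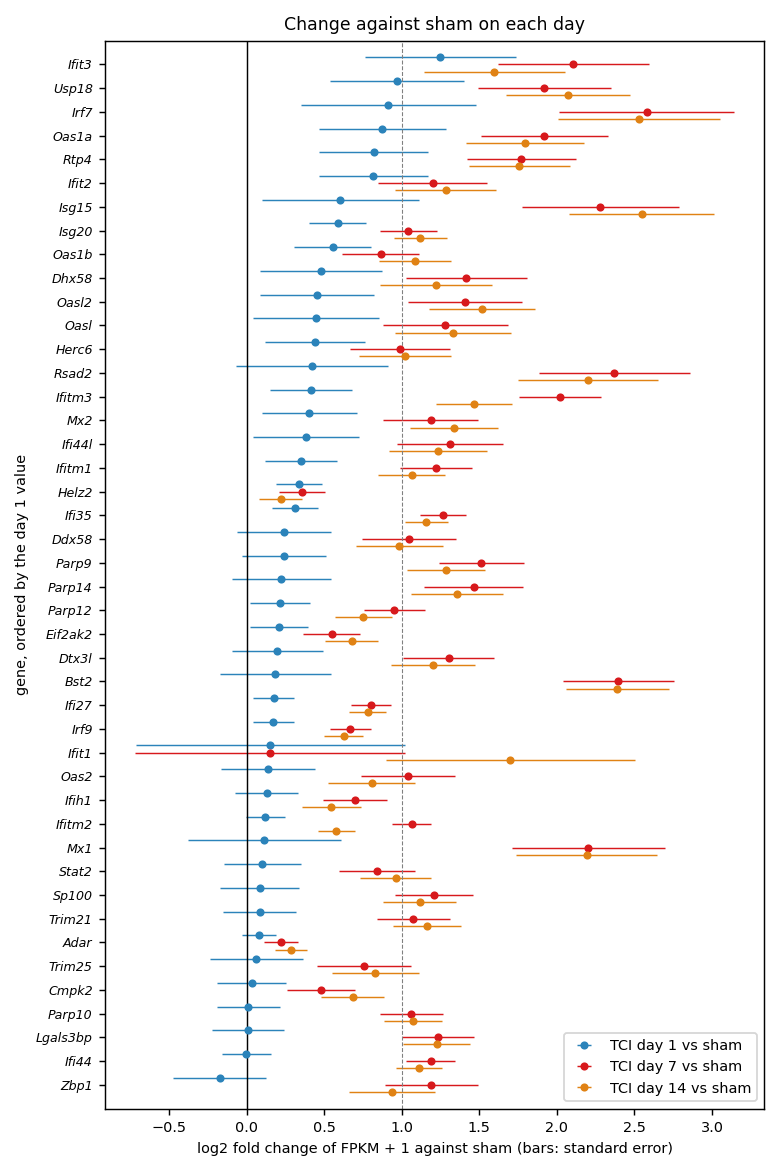
Log2 fold change of FPKM + 1 against sham for the 44 tested members on TCI D1 (blue), D7 (red) and D14 (orange), ordered by the day 1 value, with bars for the standard error and a dashed line at 1. Ifit3 has the largest day 1 value (1.25) and Zbp1 the lowest (−0.18), and the red and orange points of most members lie close to each other, with Ifitm2, Ifitm3 and Ifit1 among those that are apart.

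The step from day 1 to day 7 was tested directly for each member, while members and roles were not tested against each other. At an adjusted p of at most 0.05, 19 of 44 members were higher on TCI D7 than on TCI D1 (43.2%), against 9.02% of all genes. They were 4 of 4 membrane restriction factors, 4 of 4 PARP genes and 4 of the 4 other tested interferon-induced genes. They also held 3 of 9 effectors (Mx1, Rsad2 and Ifi44) and 2 of 5 genes of the Isg15 system (Trim21 and Dtx3l). The rest were 1 of 4 signaling genes (Irf9) and 1 of the 6 genes grouped as sensors (Zbp1). None of the 5 tested synthetase genes and none of the 3 IFIT genes passed, although the TCI D7 samples of 4 of these 5 and of Ifit3 all lay above those of TCI D1. The largest step was that of Bst2, with a log2 fold change of 2.21 (SE 0.38, adjusted p = 0.00292). For Ifit2 and Oas1b, both apart from sham on day 1, the step was 0.38 (SE 0.38) and 0.31 (SE 0.27). The cut-offs of the study were passed by Ifi44 alone (log2 fold change 1.19, adjusted p = 0.000991), 1 of 44 members (2.27%) against 0.884% of all genes. In 40 of 44 members (90.9%), against 23.8% of all genes, all TCI D7 samples lay above all TCI D1 samples, the exceptions being Oas1b, Ifit1, Ifit2 and Helz2. At the looser limit the count was 38 without sample 2 of TCI D14 (11.6% of all genes in that fit). It was 7, 9 and 9 without sample 1, 3 and 4 of TCI D1 (5.95%, 5.68% and 6.12%), and 10 and 8 without sample 1 and 2 of TCI D7 (5.5% and 5.45%). The count past the cut-offs was 14 without sample 2 of TCI D14 (2.87% of all genes) and 1 without its sample 4 (0.707%). It was 0 without any other single sample (0.1% to 1.29%).

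No difference between day 14 and day 7 passed the test. No member passed the cut-offs in either direction, beside 0% of all genes higher and 0.0143% lower, and none passed an adjusted p of 0.05 (limma). The median log2 fold change was −0.03, with sample 2 of TCI D14 included. The median of the members was 25.2 FPKM in that sample and 7.32, 7.42 and 6.08 FPKM in the other TCI D14 samples. In the TCI D7 samples used it was 8.71, 12.4 and 9.01 FPKM. Without sample 2 of TCI D14 the median log2 fold change against sham was 0.83 on day 14 and 1.19 on day 7. The smallest unadjusted p (limma), 0.00195, was that of Ifitm2 (−0.49, SE 0.13, adjusted p = 0.21). Ifitm2 was also the 1 member of 44 whose TCI D14 samples all lay below the TCI D7 samples, against 4.24% of all genes. The SE of the median member was 0.30 on the log2 scale, and a step of several SEs could go uncalled here, as that of Ifitm2 did. The lack of a call therefore does not show that the levels on these days were equal.

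The interferon genes themselves were near 0. Summed over 11 genes for type I, type II and type III interferons, sham held 0.0 to 0.13 FPKM and TCI D1 0.02 to 0.13 FPKM, TCI D7 held 0.19 to 0.85 FPKM and TCI D14 0.10 to 1.45 FPKM, the highest in sample 2. None of the 11 passed the filter for the test. Ifnb1 was listed at 0 in the 8 sham and TCI D1 samples and at 0.07 FPKM or more in 3 of the later samples. Ifng was listed at 0 in the same 8 samples and lay between 0.08 and 0.98 FPKM in the 8 later samples. These values are too low for a fold change.

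Of 11 tested sensors and adaptors outside the set, only Tlr8, an endosomal RNA receptor, passed the cut-offs on day 7 (log2 fold change 1.24, SE 0.19, limma adjusted p = 0.000825). At an adjusted p of at most 0.05, 0, 8 and 7 of the 11 were higher on days 1, 7 and 14. Of 17 tested genes known for induction by interferon-gamma, such as Tap1 and Psmb9 of antigen presentation, 0, 8 and 4 passed the cut-offs on the 3 days and 0, 16 and 16 the looser limit. The median of their log2 fold changes was 0.21, 2.44 and 2.45 in the same order, beside 0.23, 1.19 and 1.16 for the 44 members. Psmb9 was 4.11 ± 1.02 FPKM in sham, 4.81 ± 0.162 FPKM on TCI D1, 40.7 ± 3.53 FPKM on TCI D7 and 44.3 ± 36.7 FPKM on TCI D14. Comparisons with sham share the sham samples, and the 2 lists were not tested against each other.

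Markers of macrophages, T cells and cytotoxic lymphocytes were higher on both later days, while those of neutrophils and B cells differed from this. Of 15 macrophage markers, 11 passed the cut-offs on TCI D7 and 8 on TCI D14 (15 and 13 at an adjusted p of at most 0.05), and their sum was 911 to 1360 FPKM on TCI D7 and 577 to 1970 FPKM on TCI D14. Of 12 tested T cell markers, 9 and 4 passed (12 and 12 at the looser limit), and the sum over 15 markers was 31.7 to 111 FPKM and 39.8 to 115 FPKM. The sum over 9 markers of cytotoxic lymphocytes was 0.73 to 1.61 FPKM in sham, 21.0 to 55.2 FPKM on TCI D7 and 9.54 to 57.0 FPKM on TCI D14. Sample 2 of TCI D14, the highest of its group for the members, was also the highest for macrophage (1973 FPKM), T cell (114.8 FPKM) and cytotoxic markers (57.0 FPKM). Sample 3 of TCI D7, the highest of its group in 37 of 45 members, was instead the lowest of its group for these lists, with 911.4 FPKM for macrophage, 31.7 FPKM for T cell and 21.0 FPKM for cytotoxic markers. Neutrophil markers summed to 0.65 to 0.99 FPKM in sham, 4.87 to 19.7 FPKM on TCI D7 and 1.65 to 3.13 FPKM on TCI D14, where sample 2 was the lowest. Of 2 tested neutrophil markers, 2 passed an adjusted p of at most 0.05 (limma) on day 7 and 0 on day 14. B cell markers summed to 3.09 to 4.59 FPKM in sham, 4.46 to 4.95 FPKM on TCI D7 and 3.79 to 6.4 FPKM on TCI D14. The 1 tested B cell marker passed on no day. Plasmacytoid dendritic cell markers summed to 31.8 to 60.6 FPKM on TCI D7 and 50.5 to 54.8 FPKM on TCI D14. Endothelial markers summed to 23.9 to 45.3 FPKM on TCI D7 and 17.9 to 26.9 FPKM on TCI D14. None of these markers was at 0 in all samples. The part of these cells in the levels of the members on days 7 and 14 was not tested.

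Part of the markers of the ganglion itself were lower on the later days. Summed over 8 neuronal markers, sham held 13900 to 14600 FPKM, TCI D1 12400 to 14500 FPKM, TCI D7 11950, 12470 and 12670 FPKM (8493 in the sample left out) and TCI D14 11700 to 14200 FPKM. Of these 8, Nefh and Nefl, which encode neurofilament subunits, and Snap25, of synaptic vesicle fusion, were lower than in sham at an adjusted p of at most 0.05 on both day 7 and day 14. Of 4 satellite glia markers, with sums of 2900 to 4040 FPKM over all samples, the potassium channel gene Kcnj10 was lower on both days, and Glul, which makes glutamine, was higher on day 7. The part of these cells in the levels of the members was not tested. Skeletal muscle markers summed to 27550 FPKM in sample 3 of TCI D7, the sample left out, and to 652.3 FPKM in sham sample 4, but to at most 29.2 FPKM in the other 14 samples. Sham sample 4 was the highest sham sample in 13 of 45 members, and sham sample 3, with 15.8 FPKM of muscle markers, in 25. Without sham sample 4, 3 members passed the cut-offs on day 7 and 0 on day 14, against 0.907% and 0.207% of all genes. Without sham sample 3 the counts were 2 and 0, against 0.757% and 0.15%. The part of muscle RNA in the levels of the members was not tested.

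**Figure D4:**
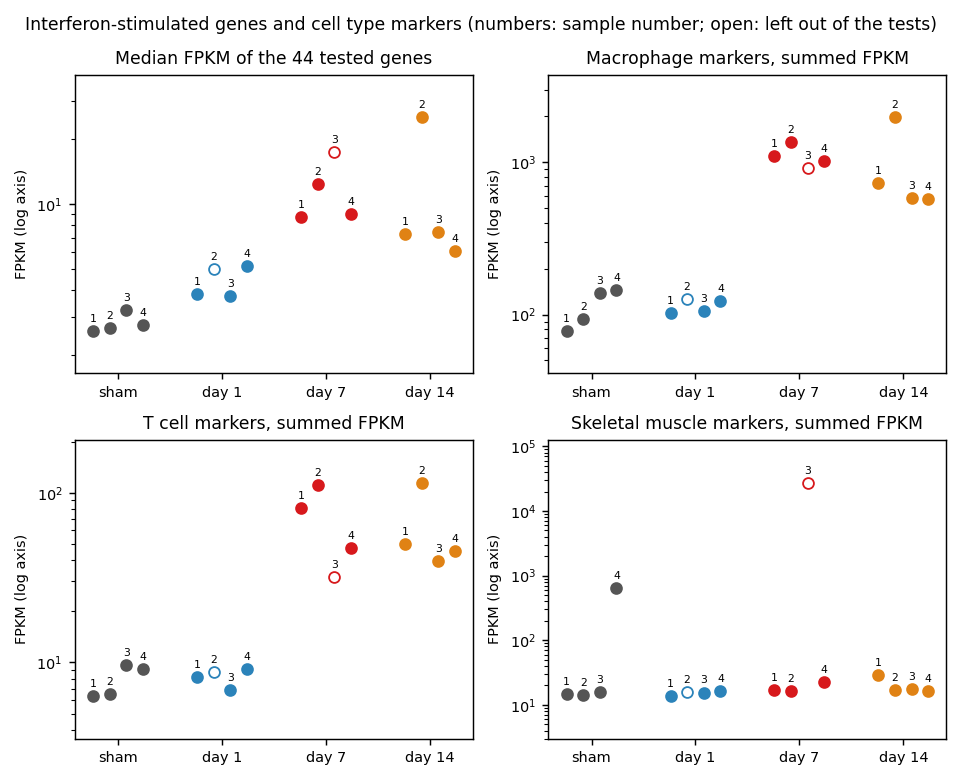
Median FPKM of the 44 tested members and summed FPKM of macrophage, T cell and skeletal muscle markers in each of the 16 samples on logarithmic axes, with the sample number above each point and open circles for samples left out of the tests. On day 1 the median of the members is above sham, and the macrophage and T cell sums overlap sham. All 3 are higher on days 7 and 14, and sample 2 is the highest TCI D14 sample in these 3 panels.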

How the data were processed

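The authors removed low-quality and adaptor reads, mapped the rest with HISAT and Bowtie2, estimated expression with RSEM and deposited FPKM values, 1 table per sample. The submitters' processing notes name CASAVA 1.4 and Bowtie2. The genome build is not given in the sources used here. The FPKM tables hold no read totals, so the depth behind single values is unknown here and no counting error was computed. Read numbers given in the study were not used. Entrez numbers of 45 of 45 members were found in RefSeq (GRCr8), used for names and promoters.

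From the deposited FPKM, log2(FPKM + 1) was fitted with limma 3.58.1 in R 4.3.3 (4 groups in 1 model, eBayes with an intensity trend), and p-values were adjusted by Benjamini-Hochberg over 14023 genes. Fold changes on this scale understate those of low genes. The procedure was tested on simulated data. The planned count test was not used, since the tables hold FPKM. No 2 samples shared over 2.59% of identical values above 0. The members and gene lists were chosen with earlier results of these data known. Values in every sample are given for members past the cut-offs on day 7 or 14, the 6 members with the smallest p on day 1, Stat2, Irf9 and Irf7. Samples are separate animals, and sample numbers shared between groups do not pair them. Alternatives were all 16 samples, 2 groups only, no trend, quantile scaling, the filter dropped or set at a mean of 5 FPKM, 0.1 as pseudocount, looser limits, sample numbers as a block, and each sample left out. The lists of receptors and kinases and of Schwann cell markers are not reported here. Counts at an adjusted p of 0.05 under these settings were added after seeing the data. Python 3.11.15, pandas 2.3.3 and matplotlib 3.10.9 were used for tables and figures.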

Additional observations from a re-analysis of the deposited data

Results flagged for a closer look

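In each group of 4 samples, all 16 included, the highest or lowest value of a member was looked up where its gap to the next sample was large against the range of the group (Dixon's test at the 95% level). Of 176 groups, 21 stood out. Chance alone gives about 1 in 20 for a single group, but the members share the same samples, so these groups are not independent. Sample 2 of TCI D14 accounted for 12, as the highest of its group: Ddx58 at 13.0 FPKM, Dhx58 at 14.3, Oas2 at 3.59, Oasl2 at 47.2, Ifit2 at 19.2, Ifit3 at 14.9, Ifitm1 at 60.7, Ifitm3 at 177.5, Bst2 at 195.6, Herc6 at 8.67, Trim21 at 13.4 and Sp100 at 7.49 FPKM. Sample 3 of TCI D7, left out of the tests, was the highest of its group for Ifitm3 (189.0 FPKM). On TCI D1, sample 2, also left out, was the highest for Parp14 (4.56 FPKM) and Sp100 (1.89 FPKM), sample 3 the highest for Stat2 (20.7 FPKM) and Ifi27 (296.2 FPKM), and sample 4 the lowest for Ifi44 (9.36 FPKM). Sample 4 of TCI D7 was the lowest for Isg20 (2.01 FPKM), and sham sample 3 the highest for Eif2ak2 (10.3 FPKM) and Parp14 (3.36 FPKM).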

How the results depend on the processing

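Under every alternative the counts past the cut-offs were 0 on day 1, 0 in either direction between day 14 and day 7, and 0 for lower members in the remaining comparisons. The other counts moved. The shares of all genes in the same fits are given in percent. With all 16 samples, 11 members passed the cut-offs on day 7 (2.38%) and 3 between day 7 and day 1 (1.6%). At an adjusted p of at most 0.05 the latter count was 30 (10.4%). With only the 2 groups compared, 29 passed on day 7 (2.89%) and 0 on day 14 (0.0285%), with 24 at 0.05 on day 14 (6.71%). Between day 7 and day 1, 8 passed in that setting (1.61%), and 38 at 0.05 (11.5%). Without the trend the counts on day 14 and between day 7 and day 1 were 1 (0.385%) and 0 (0.799%), and without a filter 0 (0.151%) and 0 (0.297%). The last was also 0 with quantile normalization (0.62%) and with a mean of at least 5 FPKM (0.587%). The limit of 5 FPKM left 28 members, 24 of them at 0.05 on day 7 (12.1%). At an adjusted p of at most 0.05 with the fold limit the counts were 31, 29 and 12, for which no share of all genes was computed. Without the fold limit the counts were 38, 38 and 19 (14.5%, 11.9% and 9.02%). The shares with the limit cannot exceed these, since the fit is the same. Leaving out 1 sample gave 0 to 31 on day 7, 0 to 9 on day 14 and 0 to 14 between day 7 and day 1. The shares of all genes were 0.351% to 3.38%, 0.107% to 1.24% and 0.1% to 2.87%. At 0.05 the counts were 25 to 42, 29 to 42 and 7 to 38, beside 10.1% to 17.1%, 8.11% to 14.4% and 5.45% to 11.6%. Why these counts moved was not tested, beyond the fewer samples or genes in the fit.

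With the sample number as a block, 2 members passed on day 7, 0 on day 14 and 0 between day 7 and day 1, against 0.799%, 0.135% and 0.178% of all genes. At 0.05 the counts were 37, 40 and 11, against 13.6%, 11.8% and 6.26%. The samples come from different animals, and samples of the same number did not deviate together (median correlation 0.003, from −0.095 to 0.269 over 18 pairs), so the numbers do not pair them. Of 3120 fold changes of single members under 24 settings, 2860 kept their direction and their side of the cut-offs, 72 lost and 188 gained a call, and 0 called values reversed. Depth is not in the tables and limits the low genes most, such as Oas2, Oas3 and Ifit1.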
